A study of Mus musculus with 8 samples.

Results

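Tubulin isotypes were followed as the 10 alpha- and beta-tubulin genes Tuba1a, Tuba1b, Tuba1c, Tuba4a, Tubb2a, Tubb2b, Tubb3, Tubb4b, Tubb5 and Tubb6, picked by gene name from the 55679 genes of the expression table. The table held RNA-seq values of whole left ventricle from male wild-type (WT) C57BL/6J mice. The control group (n = 4) carried subcutaneous osmotic pumps that delivered saline for 7 days, and the ANG II group (n = 4) carried the same pumps delivering angiotensin II, a pressor peptide hormone, at 1500 ng/kg/min for 7 days, a model of hypertensive left ventricular hypertrophy. Hearts of both groups were flushed with saline through the chamber, and the age of the mice was not given in the sources used here. Values were in FPKM, a read level corrected for gene length and library size, and levels set side by side between genes hold for the gene lengths used. A gene was called changed when limma on log2(FPKM + 1), with Benjamini-Hochberg adjustment over 19364 genes, gave an adjusted p under 0.05 and an absolute log2 fold change above 0.5.

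Alpha- and beta-tubulin pair into heterodimers that polymerize end to end and side by side into the hollow tubes called microtubules. The isotypes are near-copies that differ mainly in their last residues, an acidic tail that projects from the microtubule surface and carries modifications such as polyglutamylation and removal of the final tyrosine. In cardiomyocytes microtubules run along the sarcomeres and around the nucleus, serve as tracks for messenger RNA and protein delivery, and when detyrosinated resist contraction, and a denser network is a known feature of hypertrophied muscle.

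In the ANG II group, Tubb3, Tubb2b, Tubb5 and Tuba1c rose and Tuba4a, which had the highest FPKM of the isotypes in both groups, fell. Mean FPKM went from 0.704 to 3.62 for Tubb3, from 3.03 to 6.32 for Tubb2b, from 73.8 to 123 for Tubb5, from 15.0 to 24.7 for Tuba1c and from 381 to 246 for Tuba4a. Thus 5 of the 10 isotypes were called, against 15.4% of all genes tested in either direction, 14.0% higher and 1.41% lower. Tuba1a, Tubb2a and Tubb6 passed the adjusted p and not the fold change, so that 7 isotypes passed the adjusted p upward and 1 downward, against 28.4% and 4.91% of all genes (33.3% in either direction). Tuba1b and Tubb4b passed neither. The median log2 fold change of the 10 isotypes was 0.42, and that of all genes tested was 0.15.

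The ends of the coding sequences of Tuba1c, Tuba4a and Tuba8 show how alpha isotypes can differ, with the last codon before the stop codon in capitals. They are the last 48 bases of each coding sequence, 5′ to 3′, from the GENCODE M21 transcripts on GRCm38, whose gene identifiers the table used.
Tuba1c, chr15:99037962-99038009 (plus strand): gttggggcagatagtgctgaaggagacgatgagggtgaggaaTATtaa
Tuba4a, chr1:75215622-75215669 (minus strand): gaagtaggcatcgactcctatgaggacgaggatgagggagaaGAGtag
Tuba8, chr6:121226032-121226079 (plus strand): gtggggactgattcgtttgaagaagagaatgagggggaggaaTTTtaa
Tuba1c ends in TAT, a codon for tyrosine, the residue that vasohibins clip off and tubulin tyrosine ligase puts back. Tuba4a ends in GAG, a codon for glutamate, so its product is made without the final tyrosine. Tuba8, a further alpha-tubulin gene of striated muscle and testis, ends in TTT, a codon for phenylalanine. Over the whole coding sequence Tuba1b and Tuba1c were 97.94% identical, and they shared 85.03 and 85.19% with Tuba4a.

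The beta isotypes printed in the same way have more varied tails.
Tubb2a, chr13:34074468-34074515 (minus strand): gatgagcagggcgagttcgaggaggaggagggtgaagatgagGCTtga
Tubb2b, chr13:34127471-34127518 (minus strand): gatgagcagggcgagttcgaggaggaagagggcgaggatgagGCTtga
Tubb3, chr8:123421635-123421682 (plus strand): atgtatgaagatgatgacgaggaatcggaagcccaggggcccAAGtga
Tubb4b, chr2:25222308-25222355 (minus strand): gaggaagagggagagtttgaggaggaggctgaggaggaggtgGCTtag
Tubb5, chr17:35834982-35835029 (minus strand): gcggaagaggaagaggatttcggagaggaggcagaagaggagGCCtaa
Tubb2a and Tubb2b end in nearly the same bases and were 96.49% identical over the coding sequence, whereas all other pairs of beta members shared between 80.21 and 85.88%. Tubb3 stands apart from the others by its final AAG, a codon for lysine. These identities bear on the counting of reads. Of all 50-base words in the transcripts of Tuba1a, 75.5% also occurred in transcripts of another gene, and for Tuba1b this was 75.1%, for Tuba1c 52.7%, for Tubb2a 49.6%, for Tubb4b 41.3% and for Tubb2b 36.9%. For Tuba4a it was 35.4%, most of it (34.6%) with Stk16, a gene on the opposite strand. The study's reads were paired and longer than 50 bases, so these are not shares of ambiguous reads, which may be lower. How the authors assigned fragments that fit several genes was not given in the sources used here, so the split among these copies is uncertain. Of the exon bases of Tuba1a and Tuba1b, 26.2 and 22.7% lie under Gm49450 on the same strand, which was listed at 0 in every library. Tubb3 and Tubb6 shared no such word with another gene and Tubb5 shared 0.0892%.

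Among alpha isotypes, Tuba4a, an isotype prominent in muscle and platelets, was listed at 369, 404, 377 and 375 FPKM in control libraries 1 to 4 and at 241, 298, 261 and 182 FPKM in ANG II libraries 1 to 4. Every ANG II library was below every control library, and the groups were separated by the gap between 298 and 369 FPKM. Its log2 fold change in limma was -0.65 (SE 0.126), at a Benjamini-Hochberg adjusted p of 0.00311. Tuba4a lies on chromosome 1 (GRCm38, chr1:75214228-75219865, minus strand), and 37.3% of its exon bases lie under Stk16, a kinase gene on the opposite strand. Stk16 itself was listed at 20.4 to 23.7 FPKM in control libraries and 26.1 to 29.8 FPKM in ANG II libraries, so the overlapping gene was higher where Tuba4a was lower. Whether the counting used strand was not given in the sources used here.

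Tuba1c, one of a cluster of close copies on chromosome 15 (chr15:99029891-99038110, plus strand), was listed at 15.4, 13.3, 16.0 and 15.4 FPKM in control libraries 1 to 4 and at 26.4, 22.8, 26.9 and 22.5 FPKM in ANG II libraries 1 to 4. The groups did not overlap, and the lowest ANG II library stood well above the highest control library. This amounted to 0.68 on the log2 scale (SE 0.0821, adjusted p in limma 0.000242). With median-of-ratios scaling or quantile normalization in place of the deposited scale it was 0.46 and 0.45, under the fold change threshold, with limma adjusted p of 0.00335 and 0.00421.

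Tuba1a, the alpha isotype best known from developing neurons (chr15:98949837-98953703, minus strand), was listed at 29.4, 28.8, 26.2 and 30.9 FPKM in control libraries 1 to 4 and at 43.6, 38.3, 38.3 and 35.1 FPKM in ANG II libraries 1 to 4. All ANG II libraries were above all control libraries, although ANG II library 4 came within a few FPKM of control library 4. Its log2 fold change of 0.42 (SE 0.0751) passed the adjusted p (limma, 0.00222) and not the fold change threshold. Tuba1b, the broadly expressed copy (chr15:98931425-98934565, minus strand), was listed at 27.1, 27.3, 24.0 and 23.7 FPKM in control libraries 1 to 4 and at 36.4, 33.1, 41.0 and 22.0 FPKM in ANG II libraries 1 to 4. Here 3 ANG II libraries were above all controls and library 4 was below all controls. Its log2 fold change was 0.33 (SE 0.160), with an adjusted p of 0.142 in limma. With ANG II library 4 left out, it was 0.51 and the adjusted p in limma was 0.00373.

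Library 4 of the ANG II group was the lowest of its group for all 10 isotypes. Its 10 isotypes summed to 519.5 FPKM, against 692.0 to 717.8 FPKM in the other ANG II libraries and 690.4 to 728.0 FPKM in the controls. The same library had the lowest sum of 6 cycling cell markers in its group (26.9 against 49.4 to 63.7 FPKM) and the lowest sum of 7 cardiomyocyte markers (30432 against 31181 to 33352 FPKM). It was also the lowest of its group for erythroid (581 against 975 to 2083 FPKM), platelet and megakaryocyte (34.1 against 46.9 to 85.4 FPKM), atrial (52.5 against 66.3 to 230 FPKM) and endothelial markers (367 against 371 to 425 FPKM), and the highest for T cell markers (9.09 against 4.57 to 7.73 FPKM). Their part in the tubulin values of this library was not tested.

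Among beta isotypes, Tubb4b, a widely expressed isotype also used in cilia (chr2:25222160-25224702, minus strand), was the most abundant and was listed at 141, 132, 137 and 139 FPKM in control libraries 1 to 4 and at 127, 134, 133 and 108 FPKM in ANG II libraries 1 to 4. The groups overlapped. In limma the log2 fold change was -0.13 (SE 0.0701, adjusted p 0.181), and it was -0.36 with median-of-ratios scaling, where the limma adjusted p was 0.00761 and the fold change remained under the threshold. With ANG II library 4 left out, it was -0.061 and the adjusted p in limma was 0.351. Tubb5, the general isotype of dividing and non-dividing cells (chr17:35833921-35838306, minus strand), was listed at 80.0, 78.1, 66.6 and 70.5 FPKM in control libraries 1 to 4 and at 144, 124, 129 and 94.7 FPKM in ANG II libraries 1 to 4. Every ANG II library was higher than every control library. Tubb5 thus rose by 0.72 on the log2 scale (SE 0.117, adjusted p in limma 0.00128), and the value was 0.49 with median-of-ratios scaling, just under the fold change threshold, with a limma adjusted p of 0.0111.

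Tubb3, the class known as the neuronal beta-tubulin and used to stain neurons (chr8:123411424-123422015, plus strand), had the largest log2 fold change of the 10 isotypes on the deposited scale and in all 17 alternative fits. It was listed at 0.680, 1.04, 0.457 and 0.643 FPKM in control libraries 1 to 4 and at 3.84, 3.37, 4.60 and 2.65 FPKM in ANG II libraries 1 to 4. These levels stood for 10 to 20 fragments per control library and 56 to 92 fragments per ANG II library, against a floor of 3 fragments that corresponds to 0.137 to 0.157 FPKM. The groups were far apart, with mean FPKM 5.14-fold higher in the ANG II group. The log2 fold change on the log2(FPKM + 1) scale, which understates changes of low genes, was 1.43 (SE 0.156, limma adjusted p = 0.000135), and it was 2.23 with a pseudocount of 0.1.

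Tubb2b, an isotype of developing brain (chr13:34126748-34130466, minus strand), was listed at 3.18, 3.62, 2.08 and 3.25 FPKM in control libraries 1 to 4 and at 7.78, 6.77, 5.93 and 4.79 FPKM in ANG II libraries 1 to 4. The groups did not overlap, and the log2 fold change was 0.86 (SE 0.161, limma adjusted p = 0.00275). Its close copy Tubb2a (chr13:34074274-34078007, minus strand) was listed at 20.3, 21.4, 18.8 and 22.3 FPKM in control libraries 1 to 4 and at 30.6, 27.2, 24.6 and 22.7 FPKM in ANG II libraries 1 to 4. Here too all ANG II libraries were above all controls, though ANG II library 4 and control library 4 nearly met, and the log2 fold change of 0.33 (SE 0.0926) passed the adjusted p (limma, 0.0221) and not the fold change threshold. Without control library 1 or 3 or ANG II library 1 or 2, the adjusted p of Tubb2a in limma was 0.0541, 0.0655, 0.056 and 0.0604.

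Tubb6, an isotype known from muscle and from regenerating fibres (chr18:67390717-67402749, plus strand), was listed at 23.9, 18.8, 21.9 and 22.9 FPKM in control libraries 1 to 4 and at 31.2, 29.6, 32.1 and 25.2 FPKM in ANG II libraries 1 to 4. The groups did not overlap, and the change of 0.42 on the log2 scale (SE 0.0928, adjusted p in limma 0.00692) lay under the threshold. Thus 8 of the 10 isotypes had groups that did not overlap, 7 higher and 1 lower, against 28.7% and 5.06% of all genes tested in those directions. The study's methods call its samples biological replicates but state a number per group other than the 4 libraries here, and the labels do not tie a library to an animal, so all p-values measure the spread between these libraries.

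**Figure D1:**
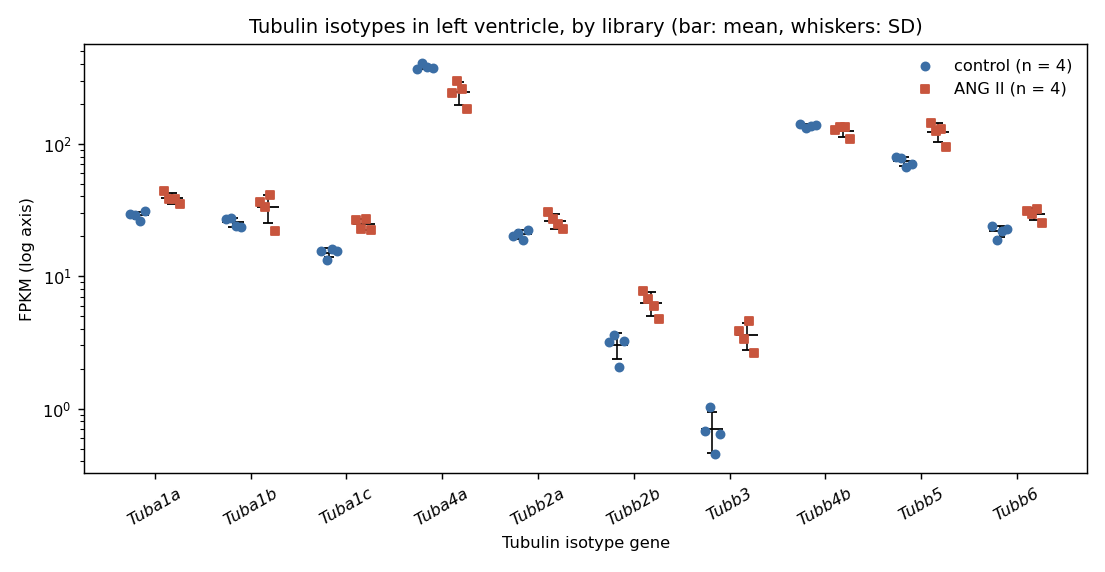
FPKM of the 10 tubulin isotypes on a log axis, 1 point per library, with circles for the control group, squares for the ANG II group, bars for means and whiskers for SD (n = 4 each). Tuba4a lies lower in all ANG II libraries, Tubb3, Tubb2b, Tubb5 and Tuba1c lie higher in all of them, and the groups overlap for Tuba1b and Tubb4b.

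Set in order of level on the deposited gene lengths, the control ventricles had Tuba4a first, then Tubb4b, then Tubb5, each separated from the next in every library. Tuba1a, Tuba1b, Tubb6 and Tubb2a followed at mean levels of 28.8 to 20.7 FPKM, and each overlapped its neighbour in that order. Tuba1c, Tubb2b and Tubb3 came last and were separated from one another. In the ANG II group the order of means was the same, but Tubb5 (123 FPKM ± 20.6, SD, n = 4) overlapped Tubb4b (126 FPKM ± 12.3, SD, n = 4), and Tuba1a, Tuba1b, Tubb6 and Tubb2a each overlapped the next. The order depends on the lengths used, and Tubb5 did not overlap Tubb4b under the 3 other lengths described further on. With 1 of these, words found in no other gene, Tuba1a stood above Tuba4a in every ANG II library, so first place changed too.

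As shares of the 4 alpha members in each library, Tuba4a made up 83.7, 85.3, 85.1 and 84.3% in control libraries 1 to 4 and 69.3, 76.0, 71.1 and 69.6% in ANG II libraries 1 to 4. The share thus dropped in every ANG II library below every control library, from 84.6% ± 0.738 to 71.5% ± 3.09 (SD, n = 4). Tuba1a took 6.40% ± 0.484 in the control group and 11.5% ± 1.73 in the ANG II group, Tuba1b took 5.66% ± 0.367 and 9.62% ± 1.41, and Tuba1c took 3.35% ± 0.359 and 7.34% ± 1.15 (SD, n = 4). None of these 4 shares overlapped between groups, including that of Tuba1b, whose FPKM did, though with words found in no other gene as lengths the Tuba1b share overlapped too. Tuba1a, Tuba1b and Tuba1c together therefore made up 15.4% ± 0.738 of alpha-tubulin FPKM in the control group and 28.5% ± 3.09 in the ANG II group (SD, n = 4). With Tuba8 added to the denominator these shares were 13.9% and 26.0%. All of these are shares of messenger RNA, and no protein or modification was measured here. As parts of a whole, the other alpha shares rise when Tuba4a falls, even with their own levels unchanged. In ANG II library 4 Tuba1b was at 22.0 FPKM, below all controls, while its share of 8.41% was above all controls.

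As shares of the 6 beta members, Tubb4b made up 52.4, 51.7, 55.5 and 53.8% in control libraries 1 to 4 and 37.0, 41.3, 40.4 and 41.8% in ANG II libraries 1 to 4. Tubb5 made up 29.7, 30.7, 27.0 and 27.2% in control libraries 1 to 4 and 41.8, 38.1, 39.2 and 36.7% in ANG II libraries 1 to 4. The pair thus went from 53.4% ± 1.67 and 28.7% ± 1.82 to 40.1% ± 2.18 and 38.9% ± 2.12 (SD, n = 4), with no overlap between groups for either. That the shares came close in the ANG II group holds only for the deposited gene lengths: they were 45.6 and 28.1% with the longest transcript and 43.4 and 27.8% with the union of exons, and with 50-base words found in no other gene Tubb4b took 46.7 to 51.2% and Tubb5 17.1 to 20.2% of the beta members in the ANG II libraries. Tubb3 took 0.273% ± 0.0942 in the control group and 1.14% ± 0.174 in the ANG II group, and Tubb2b took 1.18% ± 0.243 and 2.00% ± 0.210 (SD, n = 4). The share of Tubb6 was 8.49% ± 0.735 and 9.42% ± 0.391 (SD, n = 4) without overlap, a difference of 0.923 points that was 0.556 without control library 2, and that of Tubb2a, 8.04% ± 0.549 and 8.38% ± 0.636 (SD, n = 4), overlapped. Shares within a library do not depend on how libraries are scaled to each other, and as scores over chosen genes they were given no test.

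**Figure D2:**
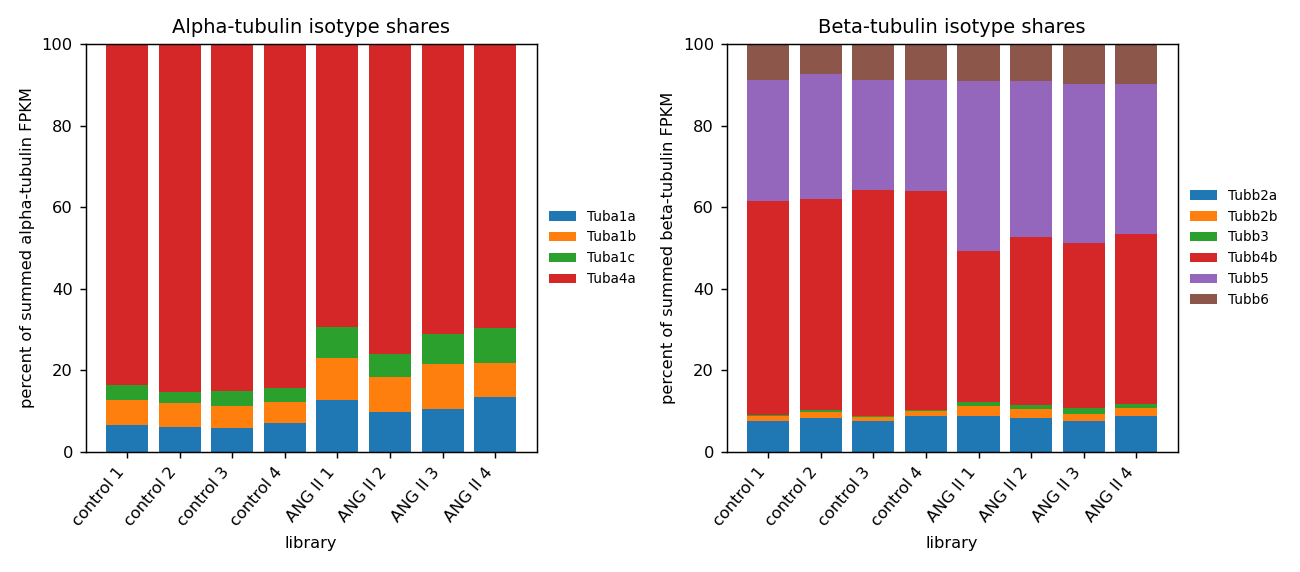
Stacked bars of each isotype as a percent of summed alpha-tubulin FPKM (left, 4 genes) and of summed beta-tubulin FPKM (right, 6 genes), 1 bar per library. In the ANG II libraries the Tuba4a block shrinks from 83.7 to 85.3% down to 69.3 to 76.0%, and the Tubb4b block shrinks while the Tubb5 block grows.

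Summed over members, alpha-tubulin reached 451 FPKM ± 15.1 in the control group and 342 FPKM ± 56.7 in the ANG II group, and beta-tubulin reached 257 FPKM ± 9.25 and 314 FPKM ± 38.5 (SD, n = 4). The alpha sums did not overlap, and the beta sums did, because ANG II library 4 (257.8 FPKM) lay within the control range. The beta difference of 56.9 FPKM was 11.8 FPKM with median-of-ratios scaling and 30.2, 25.7 and 27.8 FPKM with the longest transcript, the exon union and words found in no other gene as lengths. The alpha to beta ratio was 1.64, 1.86, 1.80 and 1.72 in control libraries 1 to 4 and 1.01, 1.21, 1.12 and 1.02 in ANG II libraries 1 to 4, so it was lower in every ANG II library.

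These sums weigh genes by length, and the deposited FPKM turned out to use the mean length of a gene's annotated transcripts, which for Tuba4a, with 8 transcripts, was 1166 bases while the union of its exons spans 3701 bases. Division of the recovered fragments by the longest transcript, the exon union or the number of 50-base words found in no other gene gave Tuba4a 73.7, 69.2 and 46.9% of the alpha members in the control group and 56.2, 50.9 and 29.3% in the ANG II group. The share was lower in every ANG II library under each length. The length by words holds only if fragments that fit other genes were not counted, which is not known here. It also leaves out the 34.6% of Tuba4a words that occur in Stk16 on the opposite strand. The order of the alpha isotypes turned in the ANG II group with words found in no other gene, where Tuba1a took 42.0% and Tuba4a 29.3%. The sum of the alpha members was different: the ANG II minus control difference was -109 FPKM as deposited, -34.0 with the longest transcript, -22.3 with the exon union and 9.43, in the opposite direction, with words found in no other gene. The ratio of alpha to beta kept its direction without overlap under each length, with differences of -0.667, -0.336, -0.320 and -0.157 in the same order.

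**Figure D3:**
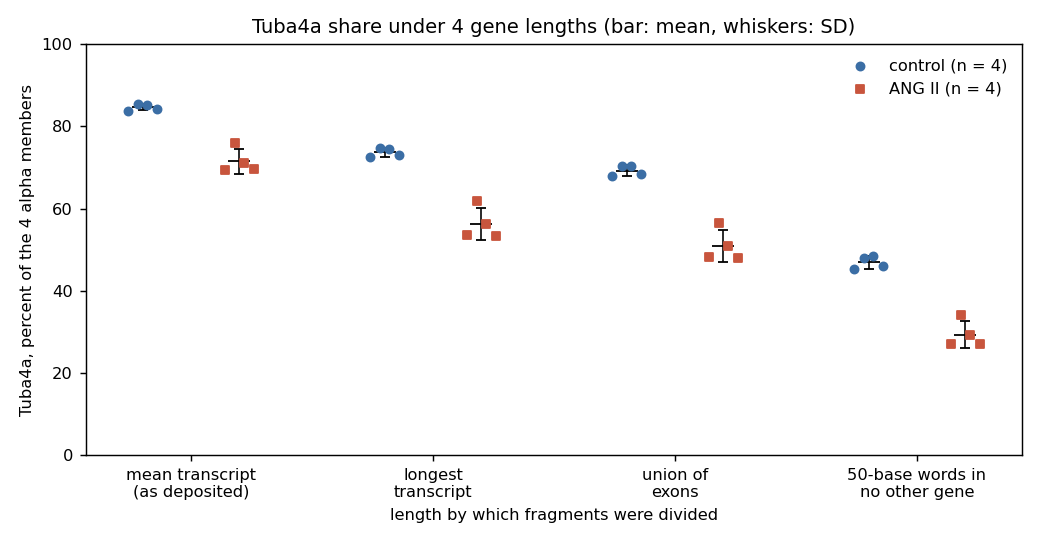
Tuba4a as a percent of the 4 alpha members (axis from 0 to 100), by the length used to turn fragments into levels, with 1 point per library, bars for means and whiskers for SD (n = 4 each). The level of the share depends on the length, from 84.6% to 46.9% in the control group, and the ANG II libraries lie lower under all 4 lengths.

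The fold changes also depend on how libraries are scaled, since the expression of most genes leaned upward on the deposited scale. Of the genes called, those higher in the ANG II group were 90.8% of 2981 as deposited, 78.7% of 2512 after removal of mitochondrially encoded and the top 10 genes, 67.5% of 2477 with median-of-ratios scaling and 58.9% of 2399 with quantile normalization. The median log2 fold change of all genes tested was 0.15, 0.054, 0.0040 and -0.044 in the same order. Relative to the median of 0.15, the log2 fold changes were 1.28 for Tubb3, 0.71 for Tubb2b, 0.57 for Tubb5, 0.53 for Tuba1c, 0.27 for Tuba1a, 0.27 for Tubb6, 0.19 for Tuba1b, 0.18 for Tubb2a, -0.28 for Tubb4b and -0.80 for Tuba4a. No isotype changed direction under any of the 17 alternative fits. Tubb3, Tubb2b and Tuba4a were called under each of the 4 scalings, while with median-of-ratios scaling the adjusted p went from 0.00222 to 0.0874 for Tuba1a, from 0.0221 to 0.461 for Tubb2a and from 0.00692 to 0.178 for Tubb6 (limma).

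**Figure D4:**
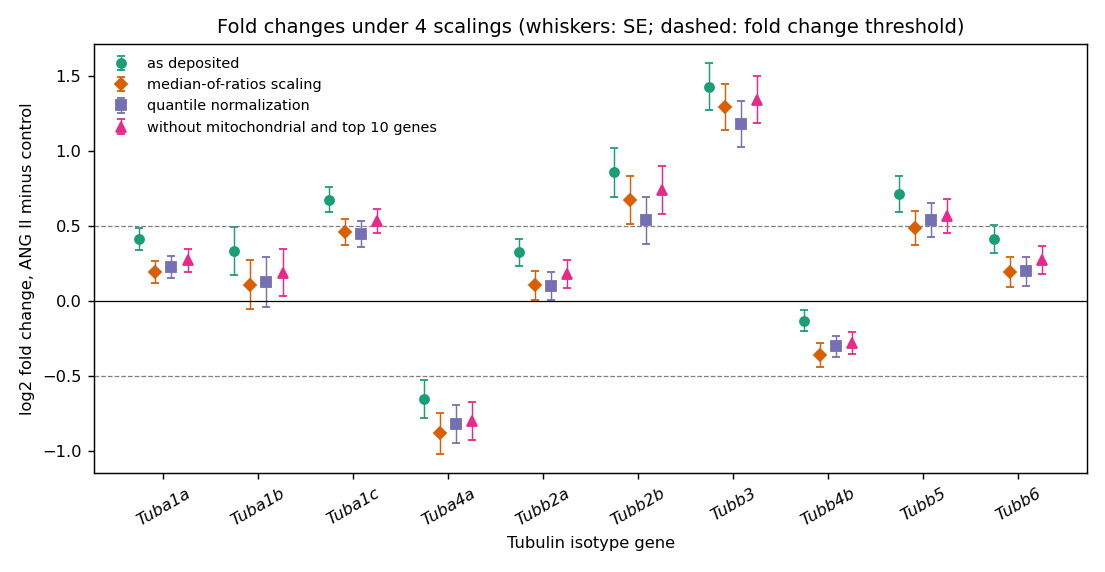
Log2 fold change (ANG II minus control, whiskers SE) of the 10 isotypes under 4 scalings of the libraries, with dashed lines at 0.5 and -0.5. All values lie below those on the deposited scale under the other 3 scalings, for Tuba4a from -0.65 to -0.88 and for Tubb5 from 0.72 to 0.49 with median-of-ratios scaling.

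The ventricle is a mixture of cells, and in bulk tissue fewer cells of a type and less RNA per cell cannot be told apart. The 7 cardiomyocyte markers had group means of 374 to 10947 FPKM, as the labelled tissue would have, and their sum ranged from 41593 to 42518 FPKM in control libraries and from 30432 to 33352 FPKM in ANG II libraries. Of the 7, 2 were called lower (Myh6 and Tnni3), beside 1.41% of all genes tested. The adjusted p was passed downward by 4, beside 4.91% of all genes, and 5 were lower without overlap, beside 5.06%. Divided by that sum and given per 1000 FPKM of it, Tuba4a was 9.06 FPKM ± 0.445 in the control group and 7.71 FPKM ± 1.26 in the ANG II group (SD, n = 4), and the groups overlapped. Over each marker alone, Tuba4a was lower in every ANG II library relative to Tnnt2 and Ryr2, and overlapped relative to the other 5, so the marker decides this comparison. On the basis of the sum Tubb4b was 3.26 FPKM ± 0.0698 and 3.96 FPKM ± 0.285 (SD, n = 4), higher in the ANG II group without overlap. The other 8 isotypes were also higher without overlap on this basis, Tuba1b included. Only Tuba4a was set over each marker alone, so for the other isotypes, Tubb4b among them, the result holds for the sum. Within the sum, Myh6 went from 10367 to 7102 FPKM, Tnnt2 from 5042 to 4638 FPKM and Ryr2 from 395 to 411 FPKM.

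Markers of other cells moved together with the isotypes that rose. All 7 fibroblast markers were called higher, with sums of 398 to 577 FPKM in control libraries and 2311 to 2734 FPKM in ANG II libraries, and all 7 macrophage markers were called higher, with sums of 260 to 330 FPKM and 582 to 812 FPKM. All 6 cycling cell markers were called higher (5.73 to 11.5 FPKM and 26.9 to 63.7 FPKM), and so were all 5 erythroid markers (96.8 to 487 FPKM and 581 to 2083 FPKM). Atrial markers, with 1 of 3 called higher, summed to 1.15 to 48.8 FPKM in control libraries and 52.5 to 230 FPKM in ANG II libraries. Beside 14.0% of all genes called higher, endothelial markers (1 of 5 called higher, 324 to 349 FPKM and 367 to 425 FPKM), smooth muscle and pericyte markers (1 of 5, 442 to 516 FPKM and 494 to 563 FPKM) and T cell markers (1 of 5, 1.73 to 6.14 FPKM and 4.57 to 9.09 FPKM) had 1 gene called each. Of 4 platelet and megakaryocyte markers 1 (Pf4) was called higher, and their sum was 20.4 to 28.6 FPKM in control libraries and 34.1 to 85.4 FPKM in ANG II libraries. The part of these cells in the changes of Tuba1c, Tubb2b, Tubb3 and Tubb5 was not tested.

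Tubb3 is commonly read as a neuronal gene, so markers of neurons and Schwann cells were examined beside it. Of 8 such genes, 6 passed the filter and 2 were called higher, beside 14.0% of all genes tested. These were Uchl1, from 4.48 to 24.7 FPKM, and Stmn2, from 3.71 to 5.99 FPKM. The Schwann cell gene Sox10, at 0.606 and 0.707 FPKM, did not pass the test. The neuronal genes Elavl4 (0.0603 and 0.0506 FPKM) and Th (0 and 0.0256 FPKM) were at or near 0 in both groups, and Prph, at 0.0111 and 0.428 FPKM, passed the adjusted p (limma, 0.013) and not the fold change. The list summed to 9.64 to 13.3 FPKM in control libraries and 27.2 to 41.1 FPKM in ANG II libraries, and its part in the change of Tubb3 was not tested.

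Among 6734 genes averaging 10 FPKM or more, those whose pattern over the 8 libraries was most like that of Tubb3 were Mfsd1, Mrc1, Cap1, Rcn3 and Fkbp1a. The measure was the root mean square difference of z-scored log2(FPKM + 1), which was 0.0798 for Mfsd1, a lysosomal membrane transporter, 0.106 for Mrc1, the macrophage mannose receptor, and 0.107 for Cap1, an actin-turnover protein. Rcn3, a calcium-binding protein of the secretory pathway, had 0.107 and Fkbp1a, a prolyl isomerase that binds ryanodine receptors, had 0.111. All 5 were higher in every ANG II library than in every control library, for example Mrc1 at 12.7 to 14.6 FPKM and 23.4 to 35.1 FPKM, and such a likeness rests on the group difference and on 8 libraries.

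Upstream of the start sites, 8 of the 10 isotypes matched the promoter table of RefSeq (GRCm38.p6), Tubb2b and Tubb6 having no entry. In the 250 bases upstream, both strands were searched for the CCAAT box (CCAAT), the GC box (GGGCGG) and a TATA element (TATAA), counting overlapping matches. The promoters of Tuba1c and Tubb5, which rose, and of Tubb4b, the most abundant beta isotype, are given 5′ to 3′ on the strand of the gene, with CCAAT and GC boxes of either strand in capitals.
Tuba1c, chr15:99029641-99029890 (plus strand): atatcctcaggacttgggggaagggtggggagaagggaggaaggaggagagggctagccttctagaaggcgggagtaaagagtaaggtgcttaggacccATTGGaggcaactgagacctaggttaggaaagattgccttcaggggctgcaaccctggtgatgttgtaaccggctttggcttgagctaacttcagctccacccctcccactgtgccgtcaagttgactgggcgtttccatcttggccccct
Tubb4b, chr2:25224703-25224952 (minus strand): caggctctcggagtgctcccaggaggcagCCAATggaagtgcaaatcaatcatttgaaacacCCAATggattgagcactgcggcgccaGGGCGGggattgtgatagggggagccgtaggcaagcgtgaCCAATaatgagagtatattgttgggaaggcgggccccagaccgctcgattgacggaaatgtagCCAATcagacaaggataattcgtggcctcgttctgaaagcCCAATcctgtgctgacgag
Tubb5, chr17:35838302-35838551 (minus strand): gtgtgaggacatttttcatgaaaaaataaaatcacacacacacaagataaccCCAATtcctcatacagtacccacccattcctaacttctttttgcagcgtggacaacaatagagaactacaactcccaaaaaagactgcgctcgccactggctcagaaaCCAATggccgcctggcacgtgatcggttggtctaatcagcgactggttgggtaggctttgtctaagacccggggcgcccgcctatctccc
Tubb4b held 5 CCAAT boxes and 1 GC box, Tubb5 held 2 CCAAT boxes and Tuba1c held 1. Over the 8 promoters, the CCAAT box was present in 5 (Tuba1a, Tuba1c, Tubb3, Tubb4b and Tubb5), the GC box in 6 (Tuba1a, Tuba1b, Tuba4a, Tubb2a, Tubb3 and Tubb4b) and the TATA element in 3 (Tuba1a, Tubb2a and Tubb3). In all 32851 promoters of the table these shares were 33.8, 32.7 and 22.8%. These are matches of letters, and binding was not measured.

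Of 10 other tubulin genes 7 were tested, and Tuba8 was the only one called, beside 15.4% of all genes in either direction and 1.41% lower. It was listed at 52.7, 39.7, 49.3 and 49.6 FPKM in control libraries 1 to 4 and at 31.3, 33.8, 31.3 and 31.7 FPKM in ANG II libraries 1 to 4, lower in all ANG II libraries, and 16.3% of its exon bases lie under Gm15856 on the opposite strand. On the log2 scale this was -0.56 (SE 0.0825, adjusted p in limma 0.000733). Tuba4a and Tuba8 were thus the tubulin genes called lower. Both lack a final tyrosine codon, but so do all beta members, among them Tubb3, Tubb2b and Tubb5, which were called higher. On the basis of the cardiomyocyte marker sum Tuba8 was 1.14 FPKM ± 0.125 and 1.01 FPKM ± 0.0247 (SD, n = 4), and the groups overlapped. Tuba8 was not set over each marker alone.

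The gamma-tubulins, which seed microtubules, were not called, with Tubg1 at 11.4 and 12.7 FPKM and Tubg2 at 0.792 and 1.21 FPKM in the control and ANG II groups. Neither were the centriolar delta- and epsilon-tubulins Tubd1 (4.91 and 5.22 FPKM) and Tube1 (0.469 and 0.582 FPKM), the brain isotype Tubb4a (1.31 and 1.51 FPKM) or the platelet isotype Tubb1 (0.309 and 1.17 FPKM). Tuba3b, of testis, was held by 1 to 5 fragments per library, and Tuba3a and Tubal3 were at 0 in every library, where a count of 0 allows up to 0.138 and 0.0935 FPKM.

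Newly made tubulin is folded by prefoldin and the chaperonin CCT and joined into dimers by the cofactors Tbca to Tbce, with Tbcel and Arl2 acting beside them. None of these 21 genes was called in limma or in voom, 9 had an unadjusted p under 0.05, 8 passed the adjusted p alone and all 8 were higher, beside 28.4% of all genes in that direction, and the list median of the log2 fold change was 0.11. Cct2, at the highest level of the list, was at 147 FPKM ± 7.77 and 157 FPKM ± 6.05 (SD, n = 4), for a log2 fold change of 0.092 (SE 0.0519) and an adjusted p in limma of 0.207. Tubulin messenger RNAs are themselves degraded when free dimer is in excess, through Ttc5, which reads the first residues of the emerging protein. None of Ttc5, Scaper and Cnot11 was called in limma or voom, 1 of them (Ttc5) had an unadjusted p under 0.05, and Ttc5 was at 10.5 FPKM ± 0.451 and 13.2 FPKM ± 0.807 (SD, n = 4), for a log2 fold change of 0.30 (SE 0.0673) and an adjusted p in limma of 0.00684.

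Of 26 genes for enzymes that modify tubulin or partner with such enzymes, 19 were tested, 3 were called higher and 1 lower, beside 14.0% and 1.41% of all genes tested, and the list median was 0.20 beside 0.15 for all genes. Ttll7, a polyglutamylase of beta-tubulin, rose from 3.35 to 5.86 FPKM (log2 fold change 0.65, SE 0.105, limma adjusted p = 0.00116). Atat1, the alpha-tubulin acetyltransferase, rose from 3.71 to 6.39 FPKM (0.64, SE 0.145, limma adjusted p = 0.0075). Ttll1, the catalytic subunit of a polyglutamylase, fell from 25.9 to 16.9 FPKM (log2 fold change -0.59, SE 0.0939, limma adjusted p = 0.00106). Svbp, the partner that vasohibins need to remove the final tyrosine, was the remaining gene called and went from 14.5 to 21.2 FPKM (log2 fold change 0.51, limma adjusted p = 0.0023), and it is named here after its values were seen. Sirt2, a deacetylase whose targets include alpha-tubulin, had the highest mean over all 8 libraries of the list, 59.6 FPKM ± 1.55 and 70.2 FPKM ± 2.68 (SD, n = 4), and did not pass the fold change threshold.

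Of 34 tested genes for proteins that bind microtubules, 8 were called higher and 1 lower, beside 14.0% and 1.41% of all genes tested, and the list median of 0.16 was close to the 0.15 of all genes. Dclk1, a doublecortin-family kinase that binds microtubules, rose from 1.44 to 4.92 FPKM (log2 fold change 1.28, SE 0.102), Map1a, a structural microtubule-associated protein, from 1.40 to 4.90 FPKM (1.27, SE 0.157) and Stmn1, a dimer-sequestering protein of dividing cells, from 7.88 to 19.3 FPKM (1.17, SE 0.175), with limma adjusted p of 2.54e-05, 0.000266 and 0.000781. Clasp1, which holds growing plus ends and is named after its values were seen, was the gene called lower, from 123 to 75.1 FPKM (-0.70, limma adjusted p = 5.65e-05). Map4, the main structural microtubule-associated protein of muscle, had the highest level of the list, 164 FPKM ± 4.12 and 197 FPKM ± 13.4 (SD, n = 4), and did not pass the fold change threshold. Of 10 nucleation genes none was called in limma and 1 (Cdk5rap2) in voom, 3 passed the adjusted p alone as well as an unadjusted p under 0.05, beside 33.3% of all genes for the adjusted p, and Mzt1, at the highest level, was at 51.1 and 47.1 FPKM. In these lists and the other tubulin genes together 14 of 94 genes tested were called as deposited (14.9%, beside 15.4% of all genes), 9 with median-of-ratios scaling and 8 with quantile normalization.

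**Figure D5:**
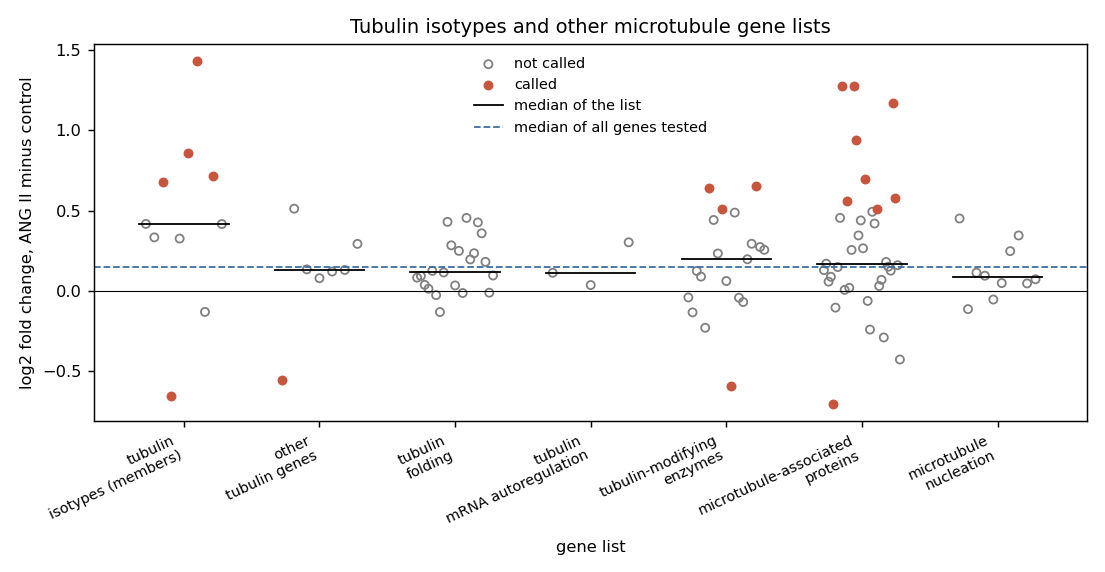
Log2 fold change (ANG II minus control) of each tested gene, by list, with filled points for called genes, open points for the others, black bars for list medians and the dashed line for the median of all genes tested (0.15). The isotypes spread from -0.65 for Tuba4a to 1.43 for Tubb3 around a median of 0.42, and the folding and nucleation lists hold no gene called by limma on log2(FPKM + 1).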

How the data were processed

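Per the labels, left ventricle RNA was enriched with oligo(dT) beads, primed with random hexamers and sequenced. The authors deposited 1 table of FPKM for 8 libraries, and the submitters' processing notes name HISAT, Bowtie2 and RSEM. Genome build, annotation and strand handling were not given in the sources used here. Of 55679 gene identifiers, 55141 were in GENCODE M21 (GRCm38). FPKM multiplied by the mean transcript length of that annotation gave whole fragments (within 0.05, for values under 60 fragments) for 99.26 to 99.35% of single-exon and 97.62 to 98.08% of multi-exon values, at 14455658 to 16564835 fragments per library, which set the depth. A count of 0 allows 3 fragments, for counting error only.

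From the deposited FPKM, log2(FPKM + 1) of 19364 genes with a mean of at least 0.1 was fitted in limma 3.58.1 (R 4.3.3) with a variance trend and no block. Benjamini-Hochberg adjustment ran over all genes tested, and the thresholds were adjusted p under 0.05 and absolute log2 fold change above 0.5. The fit was tested on simulated data. Shares, sums and marker ratios are values with no test. Same-numbered libraries did not deviate together (correlations of deviations -0.0123, 0.0921, -0.0433 and 0.000736 for the 4 pairs). No pairing by number was thus seen, though 4 pairs cannot settle whether one exists. Genes named were all 10 isotypes, the other tubulin genes, from each list up to 3 called genes with the largest change plus the most abundant, the 5 genes most like the isotype with the largest change, and markers that moved with it. The members and lists were chosen with earlier results of these data known. Alternatives were other pseudocounts, filters, scalings, gene lengths, thresholds, variance settings, a replicate block, omission of single libraries, voom on recovered fragments, and each cardiomyocyte marker alone (the last chosen after seeing the data). Python 3.11.15 with pandas 2.3.3 made the tables. Some marker genes and 1 coding sequence are not reported here.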

Additional observations from a re-analysis of the deposited data

Results flagged for a closer look

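Dixon's test at the 95% level was applied to 62 groups of 4 libraries and marked 3 values in which 1 library lay far from the rest of its group, and chance marks about 1 in 20 groups. Tubb1, the platelet beta-tubulin, was at 3.57 FPKM in ANG II library 2 against 0.141 to 0.657 FPKM in the other ANG II libraries, and the same library had the highest sum of 4 platelet and megakaryocyte markers (85.4 FPKM against 34.1 to 52.0 FPKM) and of 5 erythroid markers (2083 FPKM against 581 to 1330 FPKM). Tubb6 made up 7.39% of beta members in control library 2 and 8.84 to 8.88% in the other controls. The alpha members summed to 473 FPKM in control library 2 and to 441 to 445 FPKM in the other controls, and without that library the ANG II group was still lower by a difference of -101 FPKM.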

How the results depend on the processing

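Of the 10 isotypes 5 were called as deposited (4 higher, 1 lower). With median-of-ratios scaling 3 were called (2 higher), with no fold change threshold 8 (7 higher), and with an absolute log2 fold change above 1 only 1 (1 higher, 0 lower). In the other lists 14 of 94 genes tested were called (all genes 15.4%), 9 with median-of-ratios scaling, 8 with quantile normalization, 40 with no fold change threshold (all genes 33.3%) and 3 above 1. Over all genes 2981 were called, 6447 with no fold change threshold and 795 above 1. Leaving out 1 library at a time gave 5 to 6 isotypes, and the 6th, Tuba1b, was called only without ANG II library 4. A replicate block by library number gave 5 isotypes and 2968 genes and changed no isotype call. Of the 8 libraries 2 correlated best with their own number. The gene lengths and voom on recovered fragments were chosen after seeing the data. Voom called 5 isotypes, 21 list genes and 3988 genes in all. The Tuba4a share difference of -13.1 points was -17.5 with the longest transcript, -18.3 with the exon union and -17.6 with words in no other gene, and that of Tubb5, 10.3 points, was 8.30, 8.01 and 5.96. The alpha sum difference of -109 FPKM was -34.0, -22.3 and 9.43 (reversed) with these lengths and -171 with median-of-ratios scaling. The length by words, which gave the reversal, holds only if fragments that fit other genes were not counted, which is not known. The beta sum difference of 56.9 FPKM was 30.2 with the longest transcript, 25.7 with the exon union, 27.8 with words in no other gene and 11.8 with median-of-ratios scaling. The ratio difference of -0.667 was -0.336, -0.320 and -0.157 with the 3 lengths. Beyond the lengths themselves, the cause was not tested. Depth limits Tubb3, Tubb2b and Tubb1, which rest on few fragments in the control group.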
